A study of Mus musculus with 3 samples.

Results

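KAP1, also named TRIM28, is a corepressor brought to DNA by proteins with a KRAB domain and zinc fingers, and it in turn brings histone methyltransferases and other silencing factors to the site. In mouse embryonic stem (ES) cells it is known for silencing endogenous retroviruses, for keeping imprinted loci methylated and for lying over clusters of zinc finger genes. ZFP57 is one of these KRAB proteins and is known for its binding at imprinting control regions. Regions listed for KAP1 and far from every ZFP57 and control region are described here, and are called KAP1-only regions.

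The lists come from 3 chromatin immunoprecipitation (ChIP-seq) libraries of mouse ES cells, with 1 library per group. The control library was an HA antibody ChIP in ES cells with no expressed transgene (45956 regions). The ZFP57 library was an HA antibody ChIP in ES cells expressing HA tagged ZFP57 (22031 regions), and the KAP1 library was a ChIP with the KAP1 (RBCC) antibody in E14 ES cells with no expressed transgene (20870 regions). All regions were 150 bp wide, depth is unknown, and the files hold no score. A KAP1-only region was one whose start lay at least 10000 bp from every control start and from every ZFP57 start of its chromosome. Members were thus selected on the measured positions of the 3 lists, and the counts and distances below are descriptions with no test. The control was made with a different antibody from the KAP1 ChIP, and the KAP1 cells are named as E14 only for that library, so a difference between lists cannot be told apart from a difference in antibody or culture. The rule shows absence from a list and not absence of binding. Positions are given in build mm9, counted from 1. Genes at these positions were not analysed here.

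The rule selected 3009 of the 20870 KAP1 regions, which is 14.4% (exact 95% binomial interval 13.9 to 14.9%, counting error only), out of 88857 regions in the 3 lists. Most KAP1 regions lay much closer to another list: 12054 (57.8%) had a start within 150 bp of a control or ZFP57 start, 2997 lay from 150 to 1000 bp away, 1922 from 1000 to 5000 bp and 888 from 5000 to 10000 bp. Beyond the threshold the counts went on falling without a gap, with 515 regions from 10000 to 15000 bp and 367 from 15000 to 20000 bp. The KAP1-only set then included 1085 regions from 20000 to 50000 bp, 566 from 50000 to 100000 bp and 476 beyond 100000 bp. Its median distance to the nearest region of either other list was 32819 bp (quartiles 17964 and 69124 bp).

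The control list was the nearer neighbour for 2259 KAP1-only regions (75.1%) and the ZFP57 list for 748, with 2 ties. The control list is also the longer one. The median distance was 38136 bp to a control region and 96195 bp to a ZFP57 region. The members closest to the threshold were a region on chromosome 3 starting at 88089055 (10021 bp from the nearest other region), one on chromosome 13 at 19294885 (10027 bp), one on chromosome 7 at 29460876 (10038 bp) and a pair on chromosome 3 at 57043392 (10039 bp) and 3694145 (10048 bp). Just outside it lay KAP1 regions on chromosome 10 at 120790954 and chromosome 2 at 150246456 (9998 bp each), chromosome 4 at 11952847 (9991 bp), chromosome 1 at 36777600 (9987 bp) and chromosome 9 at 109537569 (9983 bp). These regions on both sides of the threshold lay at nearly the same distance.

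At the other end, the 5 members farthest from the other lists were all on the X chromosome and all single. They started at 17912801 (3471905 bp from any control or ZFP57 region), 127129885 (3131773 bp), 18401201 (2983505 bp), 125591155 (2284923 bp) and 19212110 (2172596 bp). The nearest other KAP1 region was also distant, between 488400 and 1538730 bp away. The X chromosome had few regions of the other lists, 12.7 control and ZFP57 starts per Mb against an autosomal median of 23.7, which leaves room for long distances there.

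KAP1-only regions occurred on every autosome, on X and on Y. On the mitochondrial sequence 0 of the 38 KAP1 regions qualified. This was fixed by the rule, because no part of the span there lay at least 10000 bp from the other lists. Density was counted per Mb of the span between the first and last region of any list. It was also counted per Mb of territory, the part of that span at least 10000 bp from every control and ZFP57 start, because the rule permits members only there. The territory came to 1965 of 2581 Mb, or 76.2%. Over it the KAP1-only density was 1.53 per Mb (95% Poisson interval 1.48 to 1.59, counting error only).

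Counted by region, chromosome 13 had the highest autosomal density on both scales. It held 186 KAP1-only regions, 1.59 per Mb of span (1.37 to 1.83) and 2.16 per Mb of territory (1.86 to 2.49). Chromosomes 17 and 8 followed, with 136 regions (1.47 per Mb of span, 2.12 per Mb of territory) and 185 regions (1.44 and 2.14). Chromosome 7 came next with 205 regions, 1.37 per Mb of span and 1.91 per Mb of territory. The Poisson intervals of these 4 chromosomes overlap, so their order is not resolved. Counted by locus, with regions joined within 5000 bp as described below, chromosome 13 did not lead. It held 150 loci over 117 Mb of span and 86.1 Mb of territory. Chromosome 17 held 126 loci over 92.3 and 64.1 Mb, and chromosome 8 held 171 over 129 and 86.4 Mb. The lowest autosome was chromosome 14, with 110 regions, 0.900 per Mb of span (0.740 to 1.09) and 1.12 per Mb of territory (0.924 to 1.35), followed by chromosome 6 with 139 regions and 1.22 per Mb of territory. The intervals of chromosomes 13 and 14 lie apart on both scales.

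The X chromosome held 71 KAP1-only regions, 0.434 per Mb of span (0.339 to 0.548) against an autosomal median of 1.21 and a lowest autosome of 0.900. The rule left more room on X, where 96.2% of the span was territory, than on any autosome (67.2 to 80.1%). Per Mb of territory X held 0.451 regions (0.352 to 0.569), 27.9% of the autosomal median of 1.62. The copy number of X in the E14 culture was not tested, nor was the share of X to which short reads can be mapped. The Y chromosome held 7 members over a span of 2.90 Mb. This was 2.42 per Mb of span (0.972 to 4.98) and 3.74 per Mb of territory (1.51 to 7.71), with wide intervals.

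**Figure D1:**
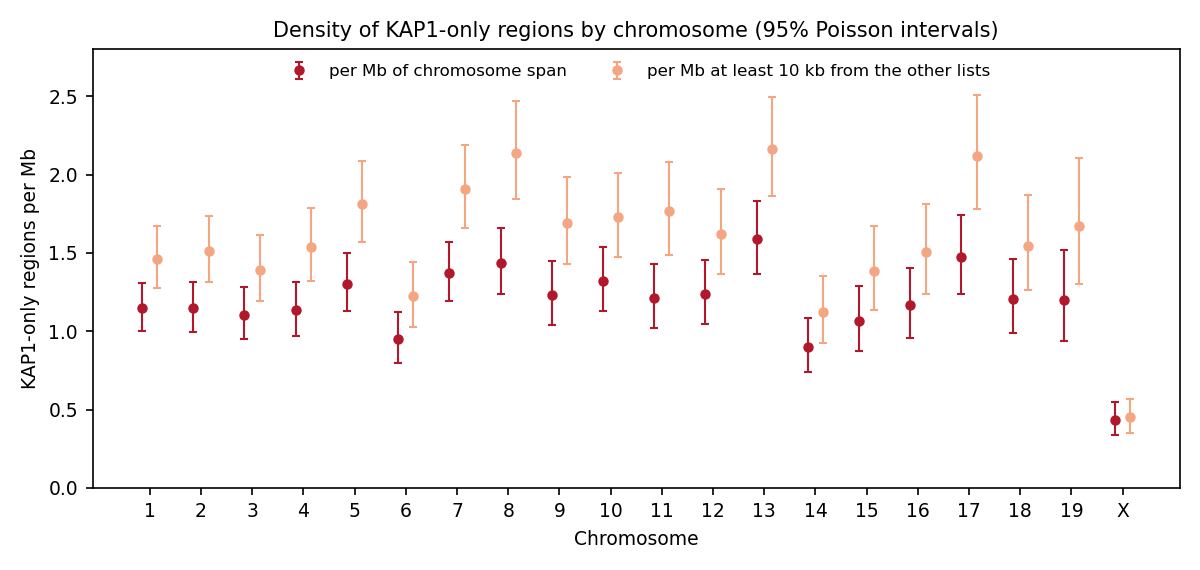
KAP1-only regions per Mb (vertical axis) on each autosome and X (horizontal axis), per Mb of chromosome span (dark points) and per Mb at least 10 kb from the other lists (light points), with 95% Poisson intervals. Counted by region, chromosome 13 is highest at 1.59 and 2.16 per Mb, and X lies below every autosome at 0.434 and 0.451. Y is left out because it holds only 7 regions.

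As a share of a chromosome's own KAP1 list, the order was different. KAP1-only regions made up 34.8% of the KAP1 regions of chromosome 18 (106 of 305), 32.2% on chromosome 15 (107 of 332) and 29.6% on chromosome 2 (205 of 692). They made up 6.54% on chromosome 17 (136 of 2081), 8.58% on chromosome 4 (173 of 2017), 6.18% on X (71 of 1149) and 2.26% on Y (7 of 310). The low shares on chromosomes 17 and 4 stood beside the longest KAP1 lists and beside densities of 1.47 and 1.13 KAP1-only regions per Mb of span.

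Zinc finger genes are among the known places of KAP1 binding, and chromosomes differ widely in how many they carry. In the RefSeq gene table of GRCm38, used here only for gene numbers, chromosome 7 had the most protein-coding genes with a numbered Zfp symbol (90). Chromosomes 17 (41), 13 (32) and 4 (27) came next, and chromosomes 1 (4) and 19 (2) had the fewest among the autosomes. Zinc finger genes with other symbols were not counted. Across the 19 autosomes, KAP1-only regions per Mb of territory went with Zfp genes per Mb at a Spearman's rho of 0.63, and with all protein-coding genes per Mb at 0.46. Per Mb of span the values were lower, 0.53 and 0.28. KAP1-only regions per Mb of territory also went with control and ZFP57 starts per Mb, at 0.72. The territory leaves out the surroundings of these same starts, so this value is partly built in by the rule. All chromosomes come from the same library and are not replicates, so these are descriptions. They cannot place any region at a gene.

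Members were joined into loci where consecutive starts lay within 5000 bp. The 3009 regions formed 2705 loci, of which 2456 held 1 region, 214 held 2, 24 held 3, 8 held 4, and 1 each held 5, 6 and 10. Loci of 2 or more thus numbered 249 and took in 553 regions, 18.4% of the set (exact 95% interval 17.0 to 19.8%). Counting neighbours of any kind in the KAP1 list, 577 members (19.2%) had another KAP1 region within 5000 bp, against 72.8% of the whole KAP1 list and 81.9% of the 17861 KAP1 regions outside the set. Within 1000 bp the shares were 9.21% of members and 57.5% of the list. KAP1-only regions were therefore mostly solitary: 2285 (75.9%) had no other KAP1 region within 10000 bp, and they made up 47.6% of the 4800 KAP1 regions with that property. The rule favours solitary regions where clusters of the 3 lists coincide, so the contrast with the whole list is not independent of it.

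Few loci had a KAP1 region outside the set close by. A KAP1 region outside the set lay within 5000 bp of 30 of the 2705 loci, 24 of them with 1 member and 6 with more. When loci were built from all KAP1 regions and kept only where every region was a member, 2675 remained and 18.1% of their regions were in loci of 2 or more. The same limit of the rule applies to these values, and the rule also bounds them. A KAP1 region outside the set and within 5000 bp of a member must itself lie 5000 to 10000 bp from another list. Only 888 of the 17861 KAP1 regions outside the set lay there, so most could not be counted. These values therefore cannot show whether loci border larger KAP1 clusters.

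The same rule applied to the other lists gives sets to compare with. ZFP57 regions at least 10000 bp from every control and KAP1 start (ZFP57-only, 3825 regions) were more numerous than KAP1-only regions over a similar territory (1985 Mb), yet 5.07% of them (4.40 to 5.82%) were in loci of 2 or more. Only 6 ZFP57-only loci held 3 or more regions, compared with 35 KAP1-only loci. Control regions far from both other lists (control-only) numbered 23997 at 10.4 per Mb of territory, and 18.4% of them were in loci of 2 or more (17.9 to 18.9%), as in the KAP1-only set. Their order against KAP1-only depended on the joining distance, and a larger distance from the other lists set the shares apart. At 20000 bp from the other lists they were 16.0% for KAP1-only and 18.0% for control-only. Joined within 2000 bp the shares were 12.2% for KAP1-only, 9.22% for control-only and 3.01% for ZFP57-only, and joined within 10000 bp they were 22.4%, 31.1% and 7.42%. KAP1-only regions had a neighbour of their own set within 1000 bp in 9.14% (8.13 to 10.2%), control-only regions in 4.93% (4.66 to 5.21%) and ZFP57-only regions in 2.17% (1.73 to 2.68%). A set with more regions per Mb meets more neighbours within any distance, so the control-only share cannot be read beside the others at equal density. Each set comes from 1 library with an unknown threshold, and the differences were not tested.

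**Figure D2:**
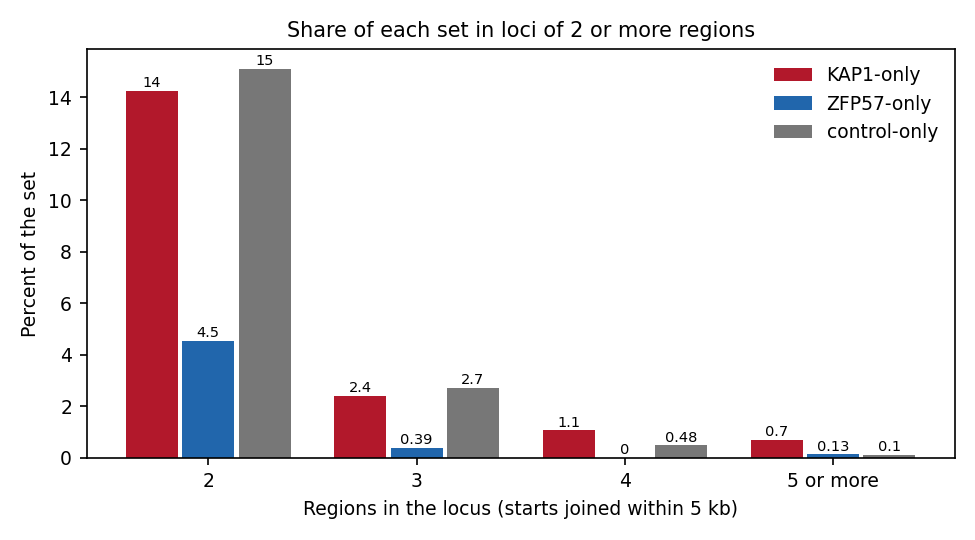
Percent of each set (vertical axis) in loci of 2, 3, 4 and 5 or more regions (horizontal axis), for KAP1-only, ZFP57-only and control-only regions. KAP1-only regions exceed ZFP57-only regions in every class, at 14.2 against 4.55% for loci of 2, and they have the highest share in loci of 5 or more. That last share rests on 1 KAP1-only locus each of 5, 6 and 10 regions. ZFP57-only has 1 locus in this class and control-only has 5.

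Inside the 249 loci there were 304 spacings between consecutive starts, with a median of 1059 bp (order-statistic 95% interval 856 to 1275 bp) and quartiles of 423 and 2560 bp. They ran from 85 to 4985 bp. Of these spacings 20 were under 150 bp, so the regions overlapped, 67 were from 150 to 500 bp and 60 from 500 to 1000 bp. The numbers then fell to 52 from 1000 to 2000 bp, 45 from 2000 to 3000 bp, 38 from 3000 to 4000 bp and 22 above 4000 bp. Spacings under 1000 bp made up 48.4% in KAP1-only loci, 42.6% of the 101 spacings in ZFP57-only loci and 25.9% of the 2351 in control-only loci. The corresponding medians were 1059, 1435 (839 to 2034) and 2054 bp (1959 to 2183). The KAP1-only and ZFP57-only intervals overlap, and the difference between these medians was not tested. The control-only interval lies above that of KAP1-only. The control-only set was denser, at 10.4 against 1.53 regions per Mb of territory. Its spacings therefore cannot be read beside the others at equal density, and this difference was not tested either. The joining distance bounds every spacing: the KAP1-only median was 584 bp when starts were joined within 2000 bp and 1640 bp within 10000 bp.

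Loci with more regions were packed at similar spacing. The median was 1196 bp (938 to 1507) in loci of 2, 825 bp (629 to 1266) in loci of 3 and 741 bp (485 to 1640) in loci of 4 or more, with overlapping intervals. The median span from first to last base was 1346 bp for loci of 2, 3202 bp for loci of 3 and 4693 bp for loci of 4 or more.

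**Figure D3:**
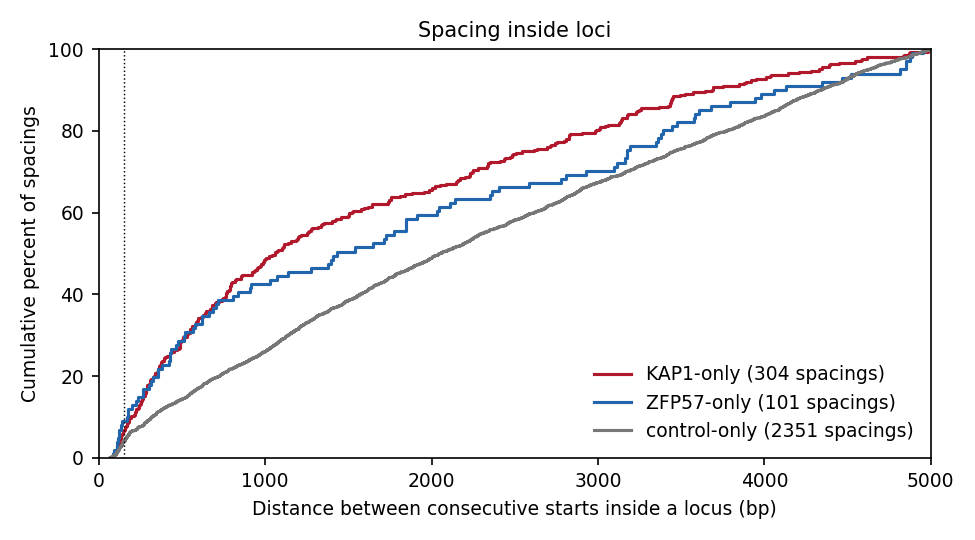
Cumulative percent of spacings (vertical axis) against the distance between consecutive starts inside loci in bp (horizontal axis) for the 3 sets; the dotted line marks 150 bp, the width of a region. KAP1-only loci reach 48.4% at 1000 bp. Control-only loci, from a set with more regions per Mb, reach 25.9%.

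The largest KAP1-only locus lay on chromosome 13 from 62282677 to 62287743 and held 10 regions in 5067 bp, 1.97 per kb. Its starts were 390, 259, 365, 134, 598, 699, 251, 269 and 1952 bp apart, so the first 9 regions were packed with a longer step before the last. The nearest control region was 12210 bp and the nearest ZFP57 region 12175 bp away, not far outside the threshold, and 50 KAP1, 15 control and 20 ZFP57 regions lay within 100 kb of the locus, members included. It thus sits inside a KAP1-dense part of the chromosome. With a threshold of 20000 bp it drops out, and the largest locus then holds 6 regions.

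That next locus lay on chromosome 11 from 70174701 to 70181633, with 6 regions in 6933 bp and spacings of 112, 325, 1880, 3683 and 783 bp. Within 100 kb there were 7 KAP1 regions, its own 6 included, 5 control regions and 1 ZFP57 region; the median over all members was 2 control regions. The nearest control region was 36568 bp and the nearest ZFP57 region 70572 bp away.

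A pair of loci on chromosome 7 had wide and even steps. The locus from 11924388 to 11937233 held 5 regions in 12846 bp, the longest span of any KAP1-only locus, with spacings of 2794, 3692, 2718 and 3492 bp. It passed the threshold narrowly, at 10522 bp from the nearest ZFP57 region, and a KAP1 region outside the set lay 6093 bp away. The locus from 67004985 to 67013886 held 4 regions in 8902 bp, with spacings of 2984, 3226 and 2542 bp, and lay 28469 bp from the nearest control region. The longest spacing was 1.36 and 1.27 times the shortest in them. Among the 35 loci of 3 or more regions, 5 had a longest spacing at most 1.5 times the shortest. The other 3 were on chromosome 4 from 61374768 to 61378541 (4 regions, spacings of 1069, 1531 and 1024 bp), chromosome 18 from 34248252 to 34251193 (3 regions, 1.09 times) and chromosome 6 from 147962470 to 147963867 (3 regions, 1.17 times). This measure of evenness and its limit were chosen after the spacings were seen. Whether the evenly spaced regions lie in tandem copies of a sequence was not tested.

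Other loci combined a tight group with a distant region. On the X chromosome the locus from 3914081 to 3918860 had a first region 4348 bp before a group of 3 spaced 136 and 146 bp apart, so the group overlapped throughout. It lay 67309 bp from the nearest ZFP57 region and 67336 bp from the nearest control region. On chromosome 1 from 13950956 to 13953567, 3 regions spaced 117 and 293 bp apart were followed by another after 2052 bp, with 0 control regions and 1 ZFP57 region within 100 kb. Chromosome 12 held a locus from 73739893 to 73743607 made of 2 pairs, with spacings of 584, 2474 and 507 bp, and 0 ZFP57 regions within 100 kb.

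The remaining loci among the 10 largest lay in parts of the genome rich in all 3 lists. On chromosome 12 the locus from 20300139 to 20304831 (spacings of 2224, 679 and 1640 bp) had 64 KAP1, 49 control and 37 ZFP57 regions within 100 kb, and a KAP1 region outside the set 1068 bp away. On chromosome 13 the locus from 65842862 to 65845530 (spacings of 975, 485 and 1059 bp) had 40 KAP1, 25 control and 22 ZFP57 regions within 100 kb.

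**Figure D4:**
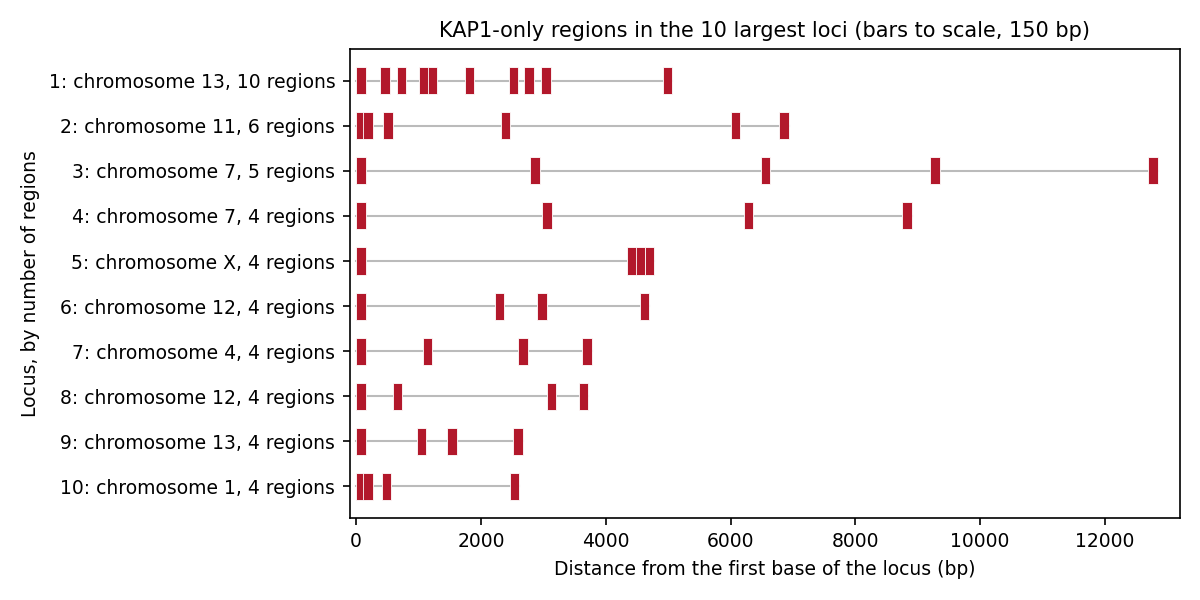
The 10 KAP1-only loci with the most regions, each drawn from its first base (horizontal axis, bp), with a bar of 150 bp for each region. The chromosome 13 locus packs 10 regions into 5067 bp, the 2 chromosome 7 loci show wide, even steps, and the X locus has 3 regions side by side.

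The 35 loci of 3 or more regions were spread over 17 chromosomes. Chromosome 1 held 5, chromosomes 7 and 13 held 4 each, and chromosomes 5, 15, 16 and Y held 0. Only 2 of the 35, both on chromosome 1 (starting at 52994601 and 53803205), lay within 1 Mb of each other. Of the 249 loci of 2 or more, 72 (28.9%) had another within 1 Mb. Loci at least 50000 bp from the other lists numbered 4 among the 35, and the most remote, on chromosome 1 from 140123409 to 140128690, held 3 regions 190491 bp from the nearest control region with 0 control and 0 ZFP57 regions within 100 kb.

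Chromosome 13 also led in clustering. There 60 of 186 members (32.3%, exact 95% interval 25.6 to 39.5%) were in loci of 2 or more, against an autosomal median of 16.2%, and 24 of the 249 such loci were on it. Chromosome 11 followed with 26.4% (19.4 to 34.4%) and chromosome 4 with 25.4% (19.1 to 32.6%). The lowest autosomes were chromosome 15 with 9.35% (4.57 to 16.5%) and chromosome 5 with 11.3% (7.21 to 16.6%). The intervals of chromosome 13 and of these lowest chromosomes lie apart, while those of most autosomes overlap. Regions of a locus enter together, and 10 of the 60 on chromosome 13 were in the largest locus, so these intervals are too narrow. Counted by locus, 24 of 150 held 2 or more on chromosome 13, 17 of 123 on chromosome 11 and 20 of 149 on chromosome 4. On the lowest chromosomes the counts were 5 of 102 on chromosome 15 and 11 of 184 on chromosome 5. No intervals were computed by locus, so a separation of chromosome 13 from these is not shown by locus. Without chromosome 13 the share over the set was 17.5%.

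Repeated patterns of spacings were looked for among the larger loci, between loci with equal numbers of regions only. In the 35 loci of 3 or more regions, 0 pairs had the same spacings within 10 bp at each step, read in either direction. The loci of 5, 6 and 10 regions were each the only one of their size, so they had no partner to match. Runs of spacings shared by loci of different size were not looked for. Among the 214 loci of 2 there were 206 distinct spacings, and 16 loci shared a spacing to the base with another. All but 1 of these matches joined different chromosomes. The exception was a pair on the Y chromosome, from 846807 to 849783 and from 927357 to 930333, each with a spacing of 2827 bp and at nearly the same distance from the other lists (19640 and 19583 bp). These matches of 2-region loci were looked for after the larger loci had been examined. Whether reads could be assigned to either Y locus alone was not tested.

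Clustered KAP1-only regions lay nearer to the other lists than single ones. The median distance to the nearest control or ZFP57 region was 25617 bp (23321 to 27723) for the 553 regions in loci of 2 or more, 22197 bp (18159 to 27432) for the 125 in loci of 3 or more and 35248 bp (33338 to 37581) for the 2456 single regions. Regions of a locus share their surroundings, so these intervals are too narrow. Counted by locus, the medians were 24832, 21953 and 35248 bp. By fixed distances, 37.1% of single regions and 23.9% of clustered regions lay beyond 50000 bp, and 27.8% and 36.2% within 20000 bp. In loci of 3 or more, 10.4% lay beyond 50000 bp.

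The distance to ZFP57 regions showed the same order, with medians of 104790 bp for single regions, 65406 bp for those in loci of 2 or more and 46909 bp in loci of 3 or more. For control regions they were 40676, 29782 and 24383 bp. Clustered regions were also nearer to the KAP1 regions outside the set, at a median of 111800 bp in loci of 2 or more and 51376 bp in loci of 3 or more, against 243442 bp for single regions. The distances to the control and ZFP57 lists were used by the rule, and all 3 lists lie in clusters, so these medians describe where the loci are and were not tested.

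Clustered regions also had more of their own kind further out. Leaving out the region's own locus, another KAP1-only region lay within 100 kb of 37.4% of the regions in loci of 2 or more (33.4 to 41.6%), 51.2% of those in loci of 3 or more (42.1 to 60.2%) and 28.9% of single regions (27.2 to 30.8%). Control regions within 100 kb averaged 5.28 for clustered and 3.40 for single members, and ZFP57 regions 3.11 and 1.47. By distance from the other lists, the share in loci of 2 or more was 22.1% from 10000 to 15000 bp, 23.4% from 15000 to 20000 bp and 23.5% from 20000 to 30000 bp. It then fell to 17.5% from 30000 to 50000 bp, 13.8% from 50000 to 100000 bp and 11.3% (8.64 to 14.5%) beyond 100000 bp. Clusters of KAP1-only regions thus occurred at every distance and were least frequent in the parts emptiest of the other lists.

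**Figure D5:**
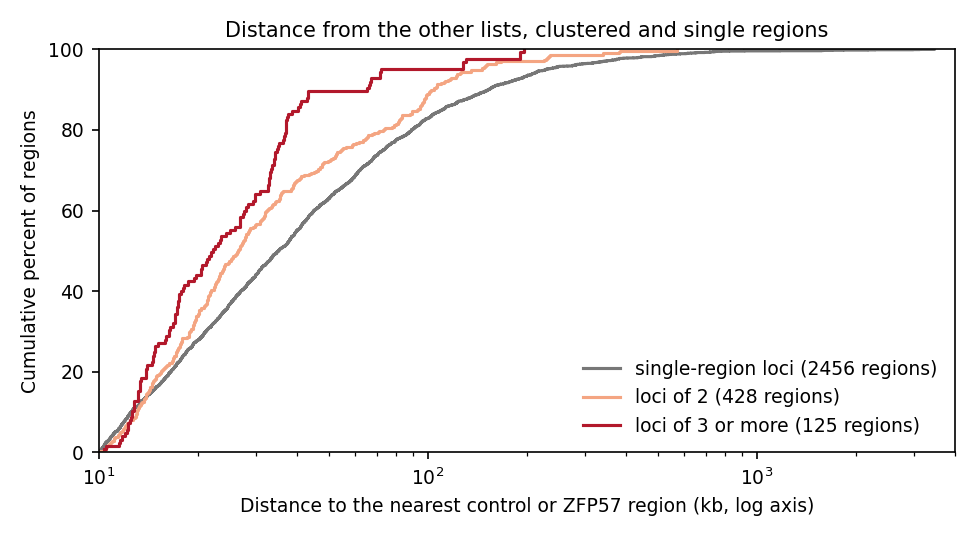
Cumulative percent of KAP1-only regions (vertical axis) by distance to the nearest control or ZFP57 region in kb (horizontal log axis, from 10 kb) for single regions, loci of 2 and loci of 3 or more. Curves for clustered regions rise earlier: 10.4% of regions in loci of 3 or more and 37.1% of single regions lie beyond 50 kb.

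At the scale of 1 Mb, 1486 of the 2515 windows with any region (59.1%) held a KAP1-only region, at most 14. The 97 windows with 5 or more held 597 of them, 19.8% of the set. Both windows with 14 were in KAP1-dense parts. Chromosome 13 from 62 to 63 Mb held 126 KAP1 regions, and its 14 members included the locus of 10. Chromosome 12 from 20 to 21 Mb held 117 KAP1 regions, and its 14 members fell in 8 loci. Chromosome 2 from 177 to 178 Mb followed with 11 members among 67 KAP1 regions. Other windows held many members with few KAP1 regions of any kind. On chromosome 10 from 17 to 18 Mb, 9 of 10 KAP1 regions were KAP1-only, on chromosome 3 from 7 to 8 Mb 9 of 11, and on chromosome 1 from 7 to 8 Mb 9 of 12.

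In 47 windows KAP1 regions numbered 30 or more and exceeded control regions. These windows held 33.5% of the KAP1 list and 151 KAP1-only regions, 5.02% of the set. This was 3.21 KAP1-only regions per window, against 1.20 over the 2515 windows with any region. Within them 2.16% of KAP1 regions were KAP1-only. On chromosome 4 from 145 to 148 Mb, 4 of 1448 KAP1 regions qualified, and on chromosome 7 from 9 to 11 Mb 1 of 325. In these blocks some control or ZFP57 region lies near almost every KAP1 region, although territory at least 10000 bp from them made up 481 kb on chromosome 4 and 1214 kb on chromosome 7. When neighbouring windows were joined, the 47 windows formed 31 blocks, of which 14 held at most 1 KAP1-only region. On chromosome 5 from 26 to 27 Mb, for example, 0 of 181 KAP1 regions qualified, and on chromosome 7 from 46 to 47 Mb 1 of 216. The share was at least 10% in 4 blocks. In these, KAP1-only regions made up 7 of 35 KAP1 regions on chromosome 7 from 15 to 16 Mb, 11 of 67 on chromosome 2 from 177 to 178 Mb, 6 of 38 on chromosome 8 from 22 to 23 Mb and 14 of 126 on chromosome 13 from 62 to 63 Mb. On chromosome 12 from 18 to 21 Mb they made up 21 of 213, of which 10 were in loci of 2 or more, whereas from 22 to 25 Mb of the same chromosome 16 of 194 qualified and 0 were in such loci.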

How the data were processed

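The authors deposited 1 region list per library, with chromosome, start and end positions and no score. Bowtie and build mm9 were used, per the submitters' processing notes. What called the peaks, at which threshold, how reads with several matches were handled and whether a control was subtracted is not given in the sources used here. Each of the 3 libraries is the only one of its group, so no test between groups was made.

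Distances were taken between starts, and KAP1-only regions were selected at 10000 bp and joined within 5000 bp. Shares carry exact (Clopper-Pearson) binomial, counts Poisson and medians order-statistic 95% intervals. All cover counting error only and ignore that regions lie in clusters. The selection and joining were tested on simulated lists, where every planted member and locus was found. Python 3.11.15, numpy 2.4.6, pandas 2.3.3, scipy 1.17.1 and matplotlib 3.10.9 were used.

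The members and the comparisons were chosen with earlier results of these data known. The text names the 10 loci with the most members, the 5 farthest members, the 5 nearest to the threshold on each side and any loci with repeated spacings; others are named as examples after their values were seen. Planned results on genes and sequence at the regions were not run, because a genome of build mm9 is not used here. RefSeq gene numbers are from GRCm38. Alternatives changed the distance, the lists used, the joining, merging and the chromosomes.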

Additional observations from a re-analysis of the deposited data

How the results depend on the processing

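Groups of 1 library allow no leave-one-out values. No paired analysis was possible because no group has replicates. The size of the set moved with its definition: thresholds of 5000, 20000 and 50000 bp gave 18.7, 10.2 and 4.99% of the KAP1 list, distance from the control list alone 17.4% and from the ZFP57 list alone 22.6%, and leaving out X, Y and the mitochondrial sequence 15.1%. At 50000 bp there were 1042 regions in 974 loci, and with the ZFP57 list alone 4726 regions in 4116 loci. The share in loci of 2 or more was 19.9, 16.0 and 12.6% at 5000, 20000 and 50000 bp, 21.3% and 22.7% with the control or the ZFP57 list alone, and 12.2 or 22.4% with joining at 2000 or 10000 bp. That joining gave median spacings of 584 and 1640 bp. The largest locus held 6 regions at 20000 bp, 4 at 50000 bp, and 6 without the locus of 10 or without chromosome 13. The ZFP57-only share in loci of 2 or more was 4.34 and 3.54% at 20000 and 50000 bp and 3.01 and 7.42% with joining at 2000 and 10000 bp, below the KAP1-only share at each setting. The control-only share was 18.0 and 17.1% at 20000 and 50000 bp, above the KAP1-only share at both. It was 9.22 and 31.1% with that joining. Its standing against KAP1-only thus depended on the threshold and on the joining distance. Per Mb of territory the autosomal median density was 1.62 and X reached 27.9% of it. From 3 regions upward, clustered members lay at a median of 22197 bp from the other lists. Of 73 values under alternatives, 40 stayed within counting error or, for counts, within 1.5 times, and 33 moved; a stricter or looser rule changes the set by construction. The alternatives without the largest locus, without chromosome 13 and for the ZFP57-only and control-only sets were chosen after seeing the data. Unknown depth and threshold limit all comparisons: a KAP1-only region may lie at a site just under the threshold of another list, which was not tested.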
